A study of Homo sapiens with 12 samples.

Results

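The genes described here encode the machinery of the nuclear RNA polymerases I, II and III: 46 listed genes for subunits, initiation factors and 1 repressor. All 46 were found among the 43481 genes in the tables and all 46 passed the filter on low counts, together with 15263 genes in all. They comprise 6 subunits of polymerase I, 2 subunits shared by polymerases I and III, 6 initiation factors of polymerase I, 6 subunits of polymerase II, 5 subunits shared by all 3 enzymes, 10 subunits and 10 initiation factors of polymerase III, and the polymerase III repressor MAF1. The cells were RPE-1, an established human line from retinal pigment epithelium, and poly-A RNA was sequenced in 12 libraries, 3 per group. Cells of every group were first kept without fetal calf serum (FCS) and glucose for 24 h. Of the 4 groups, 3 were then refed for 4 h with 10% FCS and 5 g/l of glucose. The DMA group was refed with 100 µM dimethyl amiloride, which blocks Na+/H+ exchangers. The C646 group was refed with 10 µM C646, which blocks the histone acetyltransferases p300 and CBP. The solvent group was refed with DMSO alone. The starved group received nothing further. The labels do not say whether the 3 libraries of a group came from separate cultures, so each p-value measures the spread between these libraries, which may be technical. Values per library are given in the order of libraries 1 to 3.

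RNA polymerase I transcribes the large ribosomal RNA precursor, polymerase II transcribes messenger RNAs, and polymerase III transcribes transfer RNAs, 5S ribosomal RNA and other short RNAs. Each enzyme has its own pair of large catalytic subunits and its own initiation factors, and a few small subunits serve in more than 1 enzyme. In growing cells most transcription by polymerases I and III supplies ribosomes and transfer RNAs, and both enzymes are known to be held back when nutrients or growth factors are missing. The poly-A libraries measure RNAs of the genes that encode these proteins, not the ribosomal or transfer RNAs that the enzymes make.

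The libraries held 14910516 to 28968510 expected counts. Levels are in CPM, counts scaled to library size and then by edgeR's TMM factors, and 3 reads correspond to 0.105 to 0.203 CPM, which covers counting error only. On the principal component with 14.6% of the variance, library 3 of each group lay at -36.7 to -27.55, and all other libraries at -2.66 to 27.1. The main fit holds no term for the library number. On the component with 13.4% of the variance, solvent library 1 stood away from solvent libraries 2 and 3. Of the markers of retinal pigment epithelium, RPE65, RLBP1, TYR, TYRP1 and TTR were at most 0.293 CPM in each library, whereas OTX2 (6.76 to 21.9 CPM) and MITF (17.4 to 55.4 CPM) were detected. Of the epithelial and cytoskeletal list, KRT8, KRT18 and VIM lay at 220 CPM or more in each library, whereas CDH1 and EPCAM were at most 0.251 CPM. The 4 endothelial markers summed to 0.67 to 2.55 CPM. Of the immune list, PTPRC was at most 0.628 CPM, but CD68, which is not confined to immune cells, lay at 42 to 86.4 CPM. The fibroblast and mural list summed to 121 to 420 CPM, led by THY1 (60.7 to 247 CPM), and TUBB3 of the neuronal list lay at 70.6 to 171 CPM. Between groups, the pigment epithelium list summed to 26.5 to 48.6 CPM in solvent libraries, against 64.2 to 77.6 CPM in starved libraries, and its part in the results below was not tested. Most of that sum was MITF, with 33.6, 33.1 and 17.8 CPM in solvent libraries, against 52.1, 55.4 and 52 CPM in starved libraries. OTX2 overlapped between these groups. Scaling to spike-in control sequences instead of TMM raised the median log2 fold change of all 15263 genes to 0.60 for solvent against starved cells, 0.22 for DMA against solvent and 0.13 for C646 against solvent, so all changes below are relative to the other genes. The spike-in share itself varied within groups, with 1.06, 0.527 and 0.663% of counts in solvent libraries and 1.28, 0.959 and 0.872% in starved libraries.

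Compared per length, in TPM (the deposited length-corrected unit, summed over the transcripts of a gene), the mean level over the 12 libraries ran from 6.21 TPM for POLR3B, the other large catalytic subunit of polymerase III beside POLR3A, to 225 TPM for TAF1D, a part of the polymerase I promoter factor SL1. Among the classes of subunits, those shared by all 3 enzymes had the highest median level, 97.2 TPM, against 60.3 TPM for the subunits of polymerase II, 27.3 TPM for those of polymerase I and 25.0 TPM for those of polymerase III. Among the catalytic subunits, POLR2A of polymerase II measured 52.9 TPM, POLR3A of polymerase III 18 TPM and POLR1A of polymerase I 11.4 TPM. The initiation factors spanned the widest ranges within a class, with TAF1D 26.6-fold above TAF1A and GTF3A, the 5S gene factor, 21.7-fold above BDP1, a part of the polymerase III factor TFIIIB. Only 3.72% to 15% of the counts of TAF1D stood on protein-coding transcripts, so its level is mostly that of its other transcripts. Most counts of POLR2A, POLR2E, POLR2I and GTF3C6 also stood on transcripts not annotated as protein-coding. Within the shared subunits the highest level was 2.50-fold the lowest.

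**Figure D1:**
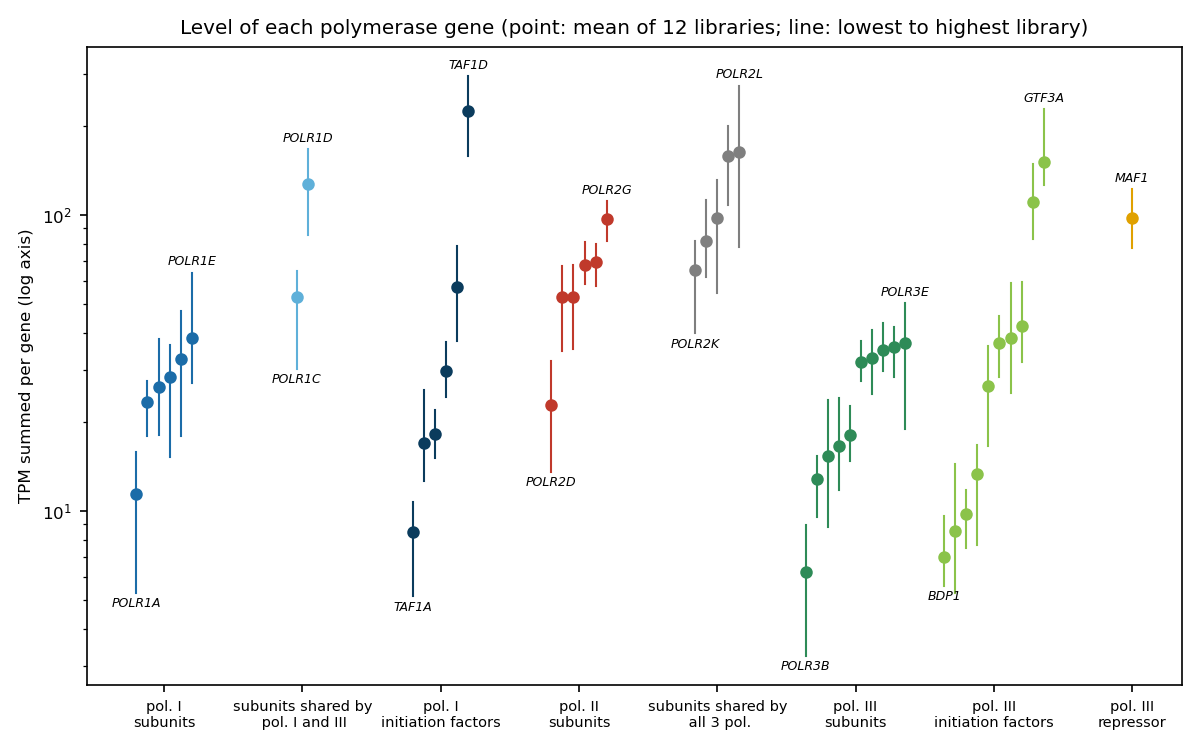
Level of each of the 46 genes in TPM summed per gene (log axis), grouped by role; points are means of 12 libraries and lines run from the lowest to the highest library. The shared subunits sit between 65.1 TPM (POLR2K) and 163 TPM (POLR2L) on average, and the extremes are POLR3B at 6.21 TPM and TAF1D at 225 TPM. At most 15% of the counts of TAF1D in a library stood on protein-coding transcripts.

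Refeeding for 4 h with serum and glucose was measured as solvent against starved cells. These groups also differ in DMSO and in the 4 h of further culture, which cannot be told apart from serum and glucose here. The RNAs of 15 of the 46 genes rose and those of 2, POLR1D and TAF1D, fell, though both measured above 0 with spike-in scaling (edgeR quasi-likelihood test, Benjamini-Hochberg adjusted p under 0.05 over all genes tested). That is 32.6% higher and 4.35% lower among the polymerase genes, while over all genes tested 12.6% were called higher and 11.7% lower, 24.3% in all. The median log2 fold change of the 46 genes was 0.24, against 0.00 for all genes tested, and 34 of 46 had a value above 0, against 7668 of 15263 genes. With spike-in scaling 46 of 46 were above 0, 20 were called higher and 0 lower, where 3227 and 189 of all genes were. The rises were spread over the classes: 3 of 6 subunits of polymerase I, 1 of 2 subunits shared by polymerases I and III, 2 of 6 polymerase I factors, 2 of 6 subunits of polymerase II, 2 of 5 subunits shared by all, 3 of 10 subunits of polymerase III and 2 of 10 of its factors. The groups' libraries did not overlap for 22 genes, 18 higher and 4 lower (39.1% and 8.70% of the 46, against 20.5% and 19.5% of all genes tested, 40.0% in all).

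**Figure D2:**
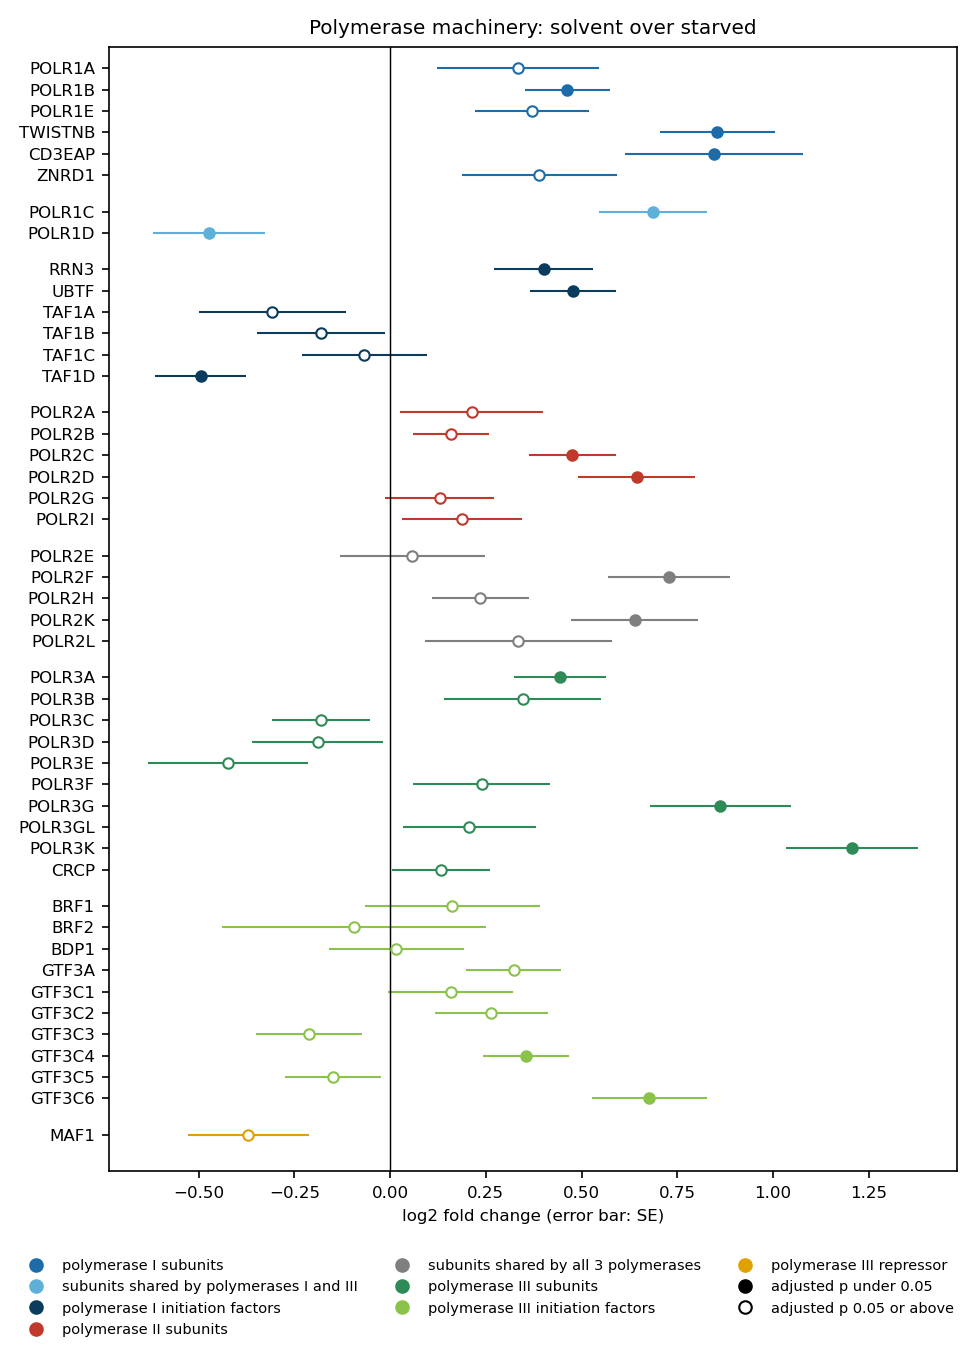
Log2 fold change of each of the 46 genes in solvent over starved cells, with error bars of 1 SE from the edgeR fit, ordered and coloured by role; filled points have an adjusted p under 0.05. POLR3K lies farthest to the right at 1.21, and POLR1D and TAF1D are the filled points left of 0 at -0.47 and -0.49; with spike-in scaling both measured above 0 (0.12 and 0.11).

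Of the subunits of polymerase I, TWISTNB, CD3EAP and POLR1B rose. TWISTNB (chromosome 7, 19695462 to 19709087 on GRCh38), the stalk subunit that in yeast contacts the factor Rrn3, measured 71.6, 70.1 and 76.8 CPM in solvent libraries, against 36.2, 35.6 and 49.3 CPM in starved libraries (log2 fold change 0.85 ± 0.15 SE, edgeR adjusted p = 0.0014). CD3EAP (chromosome 19, 45406209 to 45410766), which pairs with POLR1E in a heterodimer on the enzyme, measured 54.2, 60.5 and 50.1 CPM in solvent libraries, against 27.2, 33.4 and 31.2 CPM in starved libraries (0.84 ± 0.23, edgeR adjusted p = 0.019). For both genes the lowest solvent library lay above the highest starved library. The call of CD3EAP ended without starved library 1 (adjusted p = 0.075) or solvent library 2 (0.061), and its counts are uncertain because ERCC1 overlaps 45.1% of its exon bases. POLR1B, the catalytic partner of POLR1A, measured 69.4, 58.8 and 62.8 CPM in solvent libraries, against 46.05, 45.3 and 47.2 CPM in starved libraries (0.46 ± 0.11, edgeR adjusted p = 0.009). The catalytic subunit POLR1A (0.33), POLR1E (0.37) and ZNRD1 (0.39), whose yeast counterpart acts in cleavage of the transcript, did not pass the test, so that 6 of 6 subunits had a log2 fold change above 0 and 3 of 6 were called. An offset for the length of each gene's transcripts ended the calls of POLR1B (adjusted p = 0.11), POLR1D (0.25), UBTF (0.065) and GTF3C4 (0.055).

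The subunits that polymerases I and III share went opposite ways under TMM, and both measured above 0 with spike-in scaling. POLR1C and POLR1D pair with each other on the assembly platform of both enzymes. POLR1C measured 52.6, 52.3 and 50.95 CPM in solvent libraries, against 25.8, 31.2 and 40.1 CPM in starved libraries (0.69 ± 0.14, edgeR adjusted p = 0.0036). POLR1D (chromosome 13, 27620742 to 27744237) measured 81.03, 87.8 and 101 CPM in solvent libraries, against 114, 123 and 137 CPM in starved libraries (-0.47 ± 0.15, edgeR adjusted p = 0.031). The libraries of the groups did not overlap for either gene, but with spike-in scaling POLR1D measured 0.12 (adjusted p = 0.81), a change of sign. The call of POLR1D also ended when starved library 2 or 3 or solvent library 1 or 2 was dropped (adjusted p = 0.072, 0.097, 0.11 and 0.086). Its most abundant transcript, POLR1D-203, measured 39.2, 41.1 and 43.2 CPM in solvent libraries, against 61.1, 72.3 and 70.8 CPM in starved libraries. The coding transcripts POLR1D-201 and POLR1D-202 overlapped between the groups, so the lower total of POLR1D was not seen in each of its transcripts. Among the initiation factors of polymerase I, UBTF, which binds the ribosomal DNA, measured 134, 124 and 153 CPM in solvent libraries, against 97.9, 108 and 88.5 CPM in starved libraries (0.48 ± 0.11, edgeR adjusted p = 0.0079). RRN3, which joins the enzyme to the promoter and is known to respond to growth signals, measured 94.04, 86.1 and 97.95 CPM in solvent libraries, against 65.99, 66.4 and 78.4 CPM in starved libraries (0.40 ± 0.13, edgeR adjusted p = 0.038). Both factors were higher in each solvent library than in each starved library, but the call of RRN3 ended when starved library 1 or 2 or solvent library 1 or 3 was dropped (adjusted p = 0.12, 0.13, 0.088 and 0.11), and 29.5% of its 31-mers are found elsewhere in the transcriptome. Of the SL1 subunits, TAF1D (chromosome 11, 93729948 to 93784391) fell, with 160.1, 179 and 163 CPM in solvent libraries, against 231, 235 and 241 CPM in starved libraries (-0.49 ± 0.12, edgeR adjusted p = 0.009), though with spike-in scaling it measured 0.11 (adjusted p = 0.82). TAF1A (-0.31), TAF1B (-0.18) and TAF1C (-0.07) did not pass the test.

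Of the 6 subunits specific to polymerase II, POLR2D and POLR2C rose. POLR2D, which forms the stalk of the enzyme with POLR2G, measured 74.1, 56.9 and 54.8 CPM in solvent libraries, against 43.7, 36.2 and 39.1 CPM in starved libraries (0.64 ± 0.15, edgeR adjusted p = 0.0087). POLR2C, an assembly subunit, measured 70.8, 78.1 and 78.4 CPM in solvent libraries, against 48.6, 58.5 and 56.3 CPM in starved libraries (0.48 ± 0.11, edgeR adjusted p = 0.0088). The solvent libraries lay above the starved libraries for both genes. The stalk partner POLR2G (0.13), the catalytic subunits POLR2A (0.21) and POLR2B (0.16), and POLR2I (0.19) had values above 0 and were not called. Of the subunits that all 3 enzymes contain, POLR2F measured 29.7, 40.3 and 38.6 CPM in solvent libraries, against 24.04, 21.4 and 20.03 CPM in starved libraries (0.73 ± 0.16, edgeR adjusted p = 0.0052). POLR2K measured 49.97, 52.4 and 49.6 CPM in solvent libraries, against 28.4, 26.8 and 42.8 CPM in starved libraries (0.64 ± 0.17, edgeR adjusted p = 0.013), and its call ended without starved library 1 (0.061) or starved library 2 (0.068). Neither gene's solvent libraries overlapped the starved ones. POLR2E (0.06), POLR2H (0.24) and POLR2L (0.33) were not called, and for POLR2E and POLR2L the lowest value of the solvent group was that of solvent library 1 (72.5 CPM against 112 and 126 CPM in solvent libraries 2 and 3 for POLR2E, 40.8 CPM against 73.5 and 81.1 CPM for POLR2L).

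The largest log2 fold change of the 46 genes was that of a subunit of polymerase III. POLR3K (chromosome 16, 46407 to 53628), the small subunit whose yeast counterpart is needed for transcript cleavage and for termination, measured 22.8, 21.1 and 19.2 CPM in solvent libraries, against 8.41, 8.46 and 10.6 CPM in starved libraries (1.21 ± 0.17, edgeR adjusted p = 0.00036). The lowest solvent library was above the highest starved library. POLR3G, one of a pair of alternative subunits of the initiation trimer, measured 42.7, 27.3 and 33.4 CPM in solvent libraries, against 16.2, 16.8 and 24.02 CPM in starved libraries (0.86 ± 0.18, edgeR adjusted p = 0.0046), while its alternative POLR3GL measured 28.3, 28.5 and 27.2 CPM in solvent libraries, against 23.1, 20.2 and 29.6 CPM in starved libraries (0.21 ± 0.17, edgeR adjusted p = 0.43). The POLR3G libraries of the groups did not overlap, those of POLR3GL did, and 21.2% of the exon bases of POLR3GL overlap another gene. The catalytic subunit POLR3A measured 103, 89.8 and 93.9 CPM in solvent libraries, against 67.5, 66.7 and 76.8 CPM in starved libraries (0.44 ± 0.12, edgeR adjusted p = 0.017), a call that ended when starved library 1 (0.062), starved library 2 (0.071) or solvent library 1 (0.064) was dropped. POLR3GL and the remaining 6 subunits were not called, with log2 fold changes from -0.42 for POLR3E to 0.35 for POLR3B.

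Among the initiation factors of polymerase III, 2 of the 6 subunits of TFIIIC, the complex that binds the internal promoter of transfer RNA genes, rose. GTF3C6 measured 68.7, 66.9 and 67.1 CPM in solvent libraries, against 40.1, 40.2 and 46.5 CPM in starved libraries (0.68 ± 0.15, edgeR adjusted p = 0.0057), and 26.6% of its 31-mers are found elsewhere in the transcriptome. A transcript annotated without a coding frame held 80.2% of its counts on average. That transcript measured 61.8, 55.8 and 55.5 CPM in solvent libraries, against 30.1, 29.7 and 43.4 CPM in starved libraries, without overlap. The coding transcript of GTF3C6 overlapped, with 6.86, 11.1 and 11.6 CPM in solvent libraries, against 10, 10.5 and 3.14 CPM in starved libraries. GTF3C4 measured 80.4, 64.4 and 73.3 CPM in solvent libraries, against 59.04, 52.2 and 59.5 CPM in starved libraries (0.36 ± 0.11, edgeR adjusted p = 0.036), and its call held only when solvent library 2 was the one dropped. Its adjusted p was 0.065, 0.14 and 0.052 with starved library 1, 2 or 3 dropped, and 0.14 and 0.081 with solvent library 1 or 3 dropped. Both genes were higher in each solvent library than in each starved library. The TFIIIB subunits BRF1 (0.16), BRF2 (-0.09) and BDP1 (0.02) and the 5S gene factor GTF3A (0.32) were not called. MAF1, which represses polymerase III when nutrients are scarce, measured 56.96, 67.8 and 65.4 CPM in solvent libraries, against 88.8, 93.6 and 63.02 CPM in starved libraries (-0.37 ± 0.16, edgeR adjusted p = 0.11), and the groups overlapped through starved library 3. With spike-in scaling MAF1 measured 0.27. A fit with the library number as a block called MAF1 lower and GTF3A and ZNRD1 higher, with the values given in the closing section. The share of all genes called by that fit was not counted for this comparison. Of the 17 genes called, 11 stayed past the threshold when any 1 of the 6 libraries was left out.

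**Figure D3:**
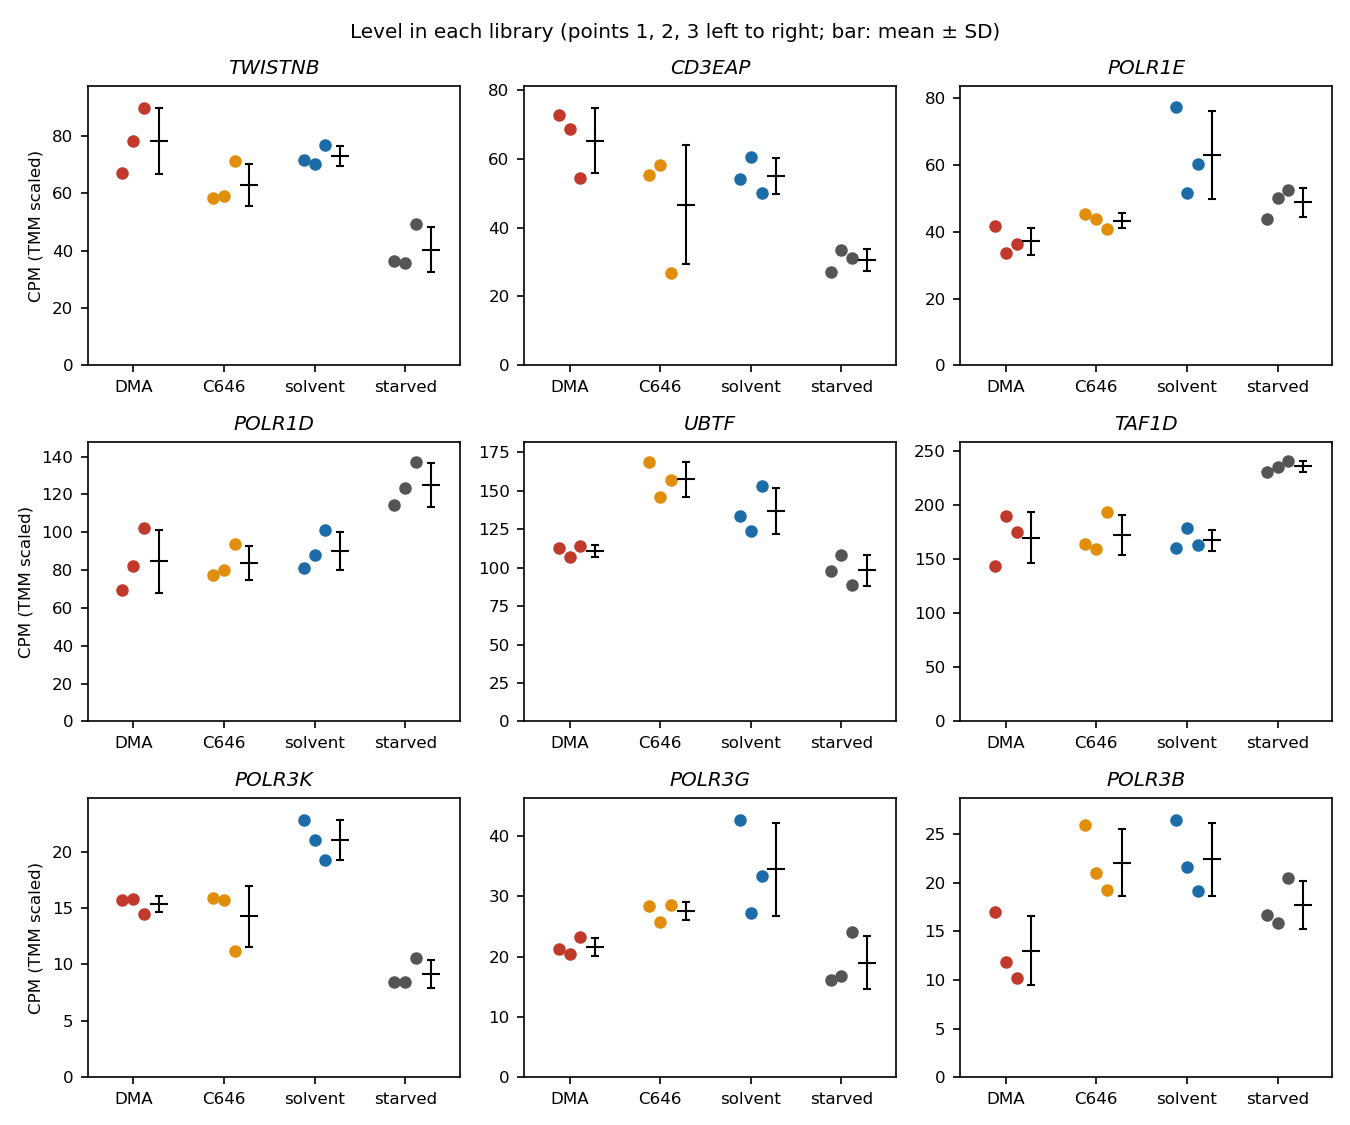
CPM of 9 genes in each library (points are libraries 1 to 3 from left to right, the bar beside them is the mean with its SD), by group: DMA, C646, solvent and starved. TWISTNB, CD3EAP, UBTF, POLR3K and POLR3G are higher in each solvent library than in each starved library, POLR1D and TAF1D are lower, and POLR1E and POLR3B are lower in each DMA library than in each solvent library; with spike-in scaling POLR1D and TAF1D measured 0.12 and 0.11 (log2) in solvent over starved cells.

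The 250 bases before the annotated start, from RefSeq's table for GRCh38.p14, were searched on both strands for 4 short motifs, and 37 of the 46 genes had a window. The palindromic E-box CACGTG, the letters bound by MYC among other factors, stood before 6 of 37 genes, and in 4 of the 13 genes with a window that rose (CD3EAP, POLR3A, GTF3C4 and GTF3C6), against 11.1% of 10794 genes tested with a window and 8.47% of the 1499 among them that rose. CCGGAAG, a core of ETS factor sites, stood in 11 of 37 genes and in 7 of the 13 that rose, against 18.2% of genes tested and 22.8% of those that rose. It also stood in 1 of the 2 genes that fell under TMM (TAF1D) and in 3 of the 22 not called. The palindromic core of NRF1 sites stood in 5 of 37 genes, against 2.24% of genes tested, and TATAAA in 1 of 37, against 8.26%. None of the motifs contains another. These are matches of letters in a window and not sites known to be bound. Shown are 3 windows with at most 30 bases in an annotated exon. They belong to POLR3A, which rose and holds both an E-box (35 bases before the start) and an ETS core (91 bases before it), for POLR2D, which rose and holds none of the 4 motifs, and for POLR1D, which fell under TMM but not with spike-in scaling and holds none. Each is 5′ to 3′ on the gene's strand, and capitals mark the motif letters.
POLR3A (chr10:78029516-78029765, minus strand): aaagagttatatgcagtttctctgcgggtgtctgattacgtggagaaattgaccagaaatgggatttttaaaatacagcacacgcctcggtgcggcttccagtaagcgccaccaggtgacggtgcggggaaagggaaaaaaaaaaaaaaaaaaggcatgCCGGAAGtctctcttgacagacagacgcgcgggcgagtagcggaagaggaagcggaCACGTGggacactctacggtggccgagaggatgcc
POLR2D (chr2:127858156-127858405, minus strand): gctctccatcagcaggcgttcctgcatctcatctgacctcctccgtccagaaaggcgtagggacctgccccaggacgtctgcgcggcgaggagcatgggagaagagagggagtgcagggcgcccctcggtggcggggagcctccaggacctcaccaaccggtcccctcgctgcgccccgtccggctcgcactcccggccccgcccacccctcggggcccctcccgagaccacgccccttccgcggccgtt
POLR1D (chr13:27620493-27620742, plus strand): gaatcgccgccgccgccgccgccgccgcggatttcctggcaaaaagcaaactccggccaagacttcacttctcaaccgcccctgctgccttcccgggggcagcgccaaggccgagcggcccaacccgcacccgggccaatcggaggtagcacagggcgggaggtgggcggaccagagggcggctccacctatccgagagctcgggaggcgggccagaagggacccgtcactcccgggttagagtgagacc

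Within a gene, the share of expected counts on transcripts annotated as protein-coding was compared for the 37 members with counts on both coding and other transcripts. For TAF1C, whose total did not change past the threshold, this share was 50.9, 53.2 and 44.6% in solvent libraries 1 to 3, against 34.1, 36 and 27.3% in starved libraries, without overlap. In retained-intron transcripts of TAF1C the solvent libraries held 8.18, 14.4 and 14 CPM, against 16, 18.3 and 19.4 CPM in starved libraries. The same share was 36.8, 20.7 and 34.7% in DMA libraries and 39.4, 37.3 and 31.7% in C646 libraries, each below the lowest solvent library. For POLR2E the share was 28.5, 24.3 and 25.8% in solvent libraries, against 14.6, 17.1 and 18.9% in starved libraries, and most of its remaining counts stood on transcripts annotated for nonsense-mediated decay. The share was higher without overlap in solvent cells for 4 genes (TAF1C, POLR2E, POLR2L and POLR3A; 10.8%, against 10.3% of 9752 genes) and lower for 1 (BDP1; 2.7%, against 4.43%), so these counts lie near those of all genes. In DMA against solvent cells it was higher for 2 (GTF3C1 and POLR3A; 5.41%, against 5.93%) and lower for 8 (21.6%, against 8.14%). In C646 against solvent cells it was higher for GTF3C6 alone (2.7%, against 4.63%) and lower for GTF3C2, POLR3GL and TAF1C (8.11%, against 6.82%). In DMA against C646 cells it was higher for POLR2H and POLR3A (5.41%, against 5.37%) and lower for POLR1D, POLR2C and ZNRD1 (8.11%, against 4.94%). TAF1D held only 3.72% to 15% of its counts on protein-coding transcripts. The fall of TAF1D in solvent cells, a fall under TMM and not under spike-in scaling, was seen in both its coding transcripts and those annotated for nonsense-mediated decay. The coding transcripts measured 5.96, 17.4 and 15.6 CPM in solvent libraries, against 20.5, 27.2 and 19.1 CPM in starved libraries. Those annotated for nonsense-mediated decay measured 82.8, 84.7 and 102 CPM in solvent libraries, against 153, 135 and 165 CPM in starved libraries. Its retained-intron transcripts overlapped, with 64.6, 72.7 and 45.3 CPM in solvent libraries, against 56.1, 71.7 and 55.8 CPM in starved libraries. Nearly all counts of POLR2A (99.5% on average) stood on a transcript annotated without a coding frame, POLR2A-209, so the share says nothing of that gene, and the division of counts among transcripts of 1 gene is an estimate made before deposit.

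**Figure D4:**
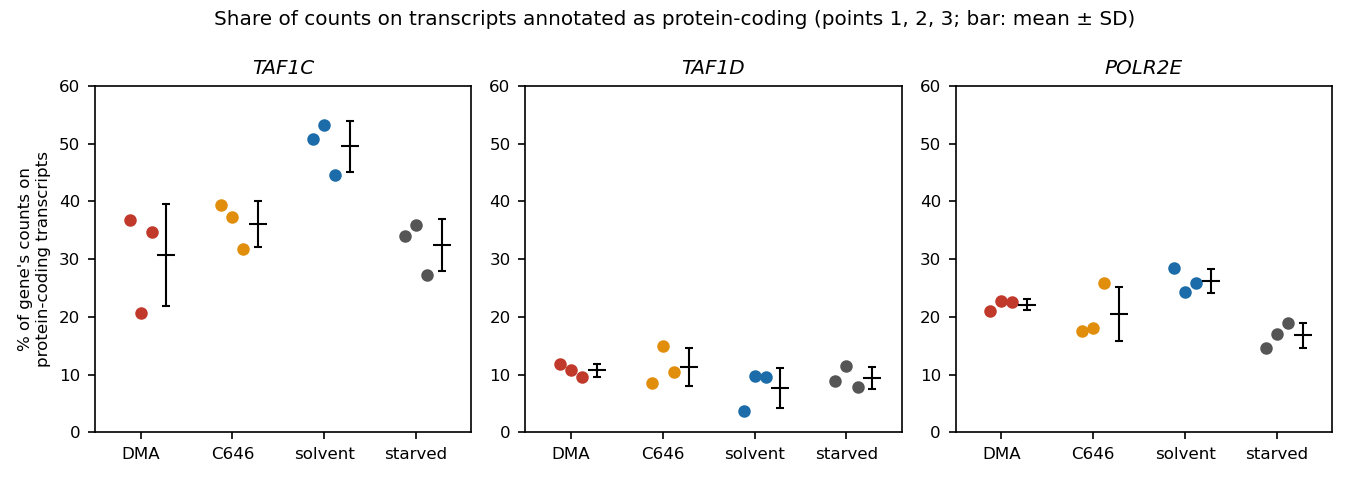
Percent of the expected counts of TAF1C, TAF1D and POLR2E that stood on transcripts annotated as protein-coding, in each library (points 1 to 3 from left to right, bar: mean with SD), by group: DMA, C646, solvent and starved. For TAF1C the solvent libraries (44.6% to 53.2%) lie above the other 9 libraries, for POLR2E they lie above the starved libraries, and TAF1D stays at 15% or less.

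The comparison of DMA with solvent cells asks what the inhibitor changes during the 4 h of refeeding. POLR1E fell, and no other of the 46 genes was called (2.17%, against 1.75% of all genes tested and 1.02% called lower). POLR1E (chromosome 9, 37485935 to 37503697), the partner of CD3EAP, measured 41.6, 33.6 and 36.2 CPM in DMA libraries, against 77.4, 51.5 and 60.2 CPM in solvent libraries (-0.76 ± 0.15, edgeR adjusted p = 0.026), so the DMA libraries lay below each solvent library. That call ended without solvent library 1 (0.11), DMA library 2 (0.14) or DMA library 3 (0.061), and in a fit of the DMA and solvent libraries alone (0.087). With spike-in scaling the value was -0.49 (adjusted p = 0.8). Without overlap, 4 genes were higher (POLR2E, POLR2F, POLR2L and MAF1; 8.70%, against 11.3% of all genes) and 11 lower (23.9%, against 11.9%). Libraries with the same number deviated together in the refed groups, and a fit with the number as a block called 7 genes, 1 higher and 6 lower (15.2%, against 10.2% of all genes, 4.76% higher and 5.46% lower). DESeq2 called 5 of the 46, where it called 7.18% of all genes. With the block and without solvent library 1, 1 gene was called.

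The genes that the block added as lower all belong to polymerase III. POLR3B measured 16.98, 11.8 and 10.2 CPM in DMA libraries, against 26.5, 21.6 and 19.1 CPM in solvent libraries (-0.79 ± 0.21, edgeR adjusted p = 0.069, with the block 0.012). POLR3G measured 21.2, 20.4 and 23.3 CPM in DMA libraries, against 42.7, 27.3 and 33.4 CPM in solvent libraries (-0.67 ± 0.18, edgeR adjusted p = 0.076, with the block 0.019). For both genes each DMA library lay below each solvent library. GTF3A measured 85.3, 81.9 and 91.4 CPM in DMA libraries, against 138, 110.2 and 107 CPM in solvent libraries (-0.46 ± 0.12, edgeR adjusted p = 0.077, with the block 0.024). The TFIIIC subunits GTF3C3 (-0.42 ± 0.14, edgeR adjusted p = 0.12, with the block 0.046) and GTF3C6 (-0.43 ± 0.15, 0.14, with the block 0.023) also lay lower in each DMA library. The coding transcript of GTF3C6 overlapped, with 6.28, 11.6 and 15.2 CPM in DMA libraries, against 6.86, 11.1 and 11.6 CPM in solvent libraries. MAF1, the repressor, was the gene that the block called higher, with 92.9, 86.96 and 77.2 CPM in DMA libraries, against 56.96, 67.8 and 65.4 CPM in solvent libraries (0.44 ± 0.16, edgeR adjusted p = 0.15, with the block 0.041). The subunits shared by all 3 enzymes had values above 0 in 5 of 5 cases, where 50.7% of all genes tested did. They were led by POLR2L (0.69) and POLR2E (0.59), and none was called by edgeR. For POLR2L and POLR2E solvent library 1 held the lowest solvent value, and CD151 overlaps 22.5% of the exon bases of POLR2L. The median of the polymerase I subunits was -0.29 under TMM and -0.06 with spike-in scaling, and that of the polymerase III subunits -0.08 and 0.16, so the sign of the last depends on the scaling.

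**Figure D5:**
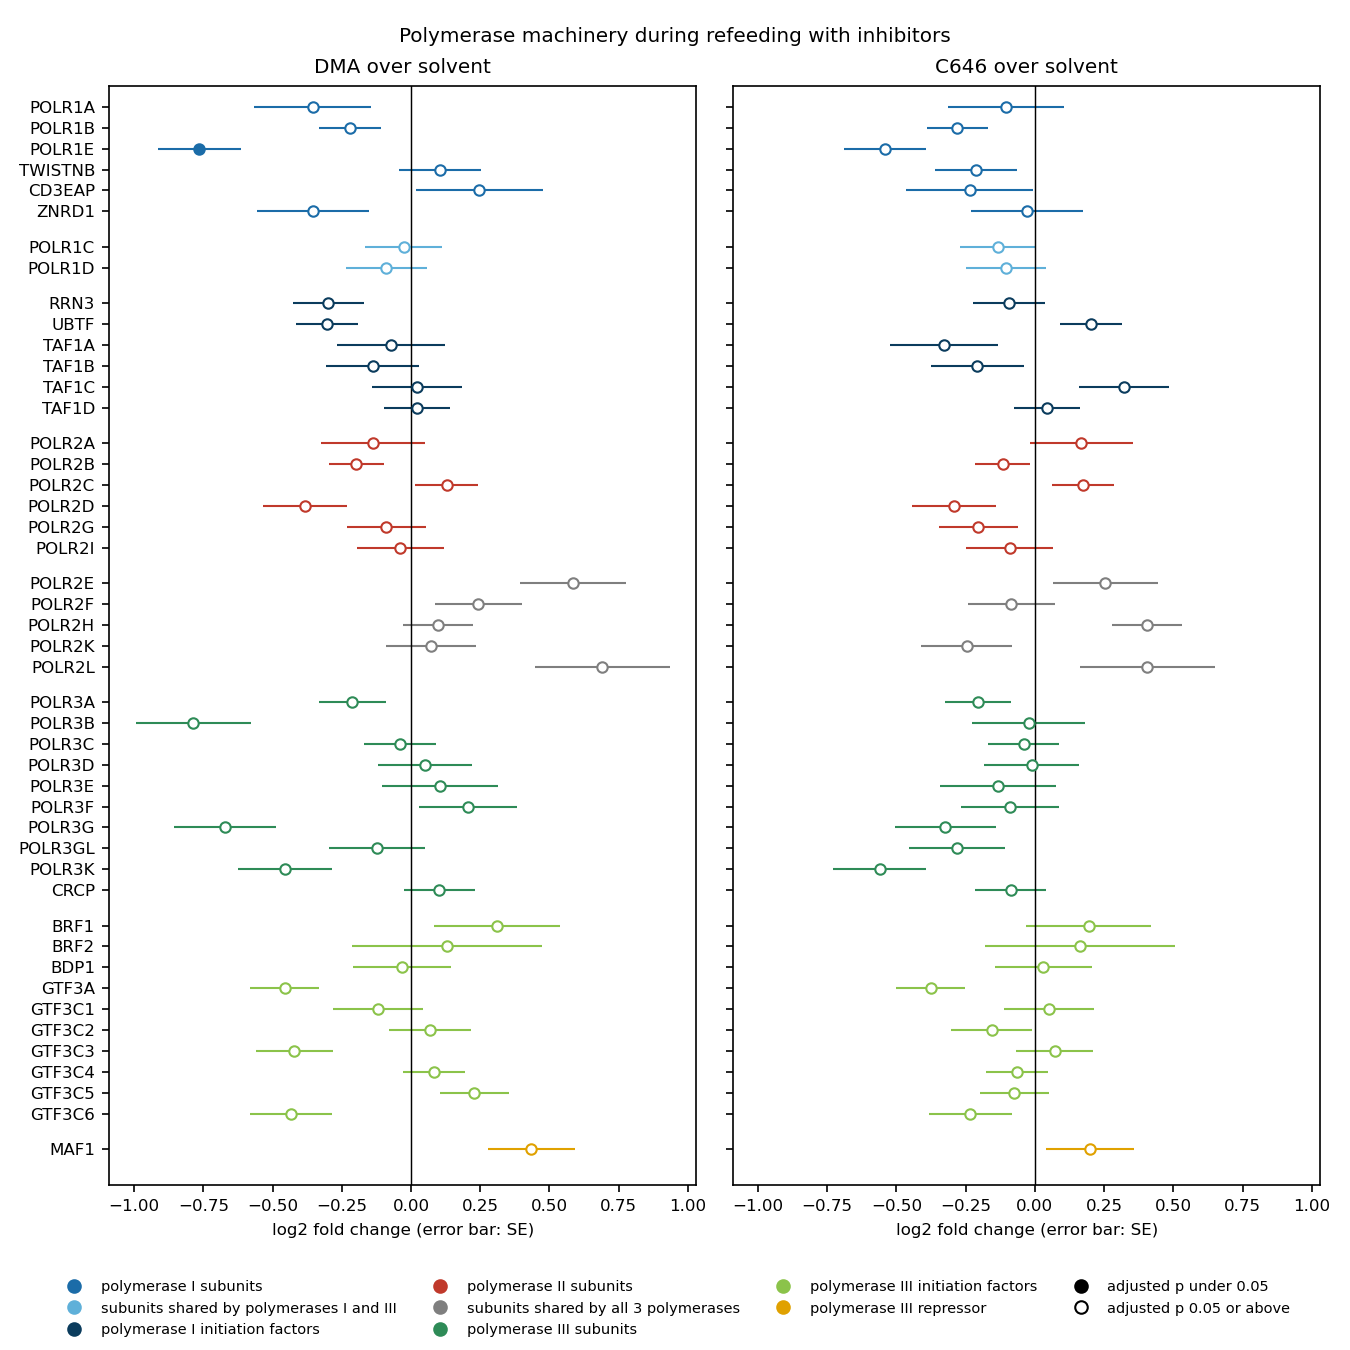
Log2 fold change of each of the 46 genes in DMA over solvent cells (left) and in C646 over solvent cells (right), with error bars of 1 SE from the edgeR fit; filled points have an adjusted p under 0.05. POLR1E at -0.76 in DMA cells is the only filled point, the panels share the solvent libraries, and with spike-in scaling it measured -0.49.

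In C646 against solvent cells no polymerase gene passed the threshold with edgeR, where 1.21% of all genes tested did. An unadjusted p under 0.05 was found for 5 of the 46 (10.9%, against 16.8% of all genes). DESeq2 called POLR2H higher and POLR1E and POLR3K lower, 3 genes, where it called 5.84% of all genes. POLR1E measured 45.4, 43.9 and 40.8 CPM in C646 libraries, against 77.4, 51.5 and 60.2 CPM in solvent libraries (-0.54 ± 0.15, edgeR adjusted p = 0.088, with the block 0.03). POLR3K measured 15.9, 15.7 and 11.2 CPM in C646 libraries, against 22.8, 21.1 and 19.2 CPM in solvent libraries (-0.56 ± 0.17, edgeR adjusted p = 0.11, with the block 0.044). For both genes each C646 library lay below each solvent library, and these were the 2 genes that the block called (4.35%, against 7.86% of all genes, 4.12% higher and 3.73% lower). With the block and without solvent library 1, 0 were called. POLR2H, a shared subunit, measured 62.5, 48.4 and 51.9 CPM in C646 libraries, against 43.5, 42.1 and 37.2 CPM in solvent libraries (0.41 ± 0.13, edgeR adjusted p = 0.12), with each C646 library above each solvent library. Without overlap, POLR2C and POLR2H were higher (4.35%, against 10.2% of all genes) and 8 genes were lower (17.4%, against 11.6%). The SE of the 46 genes ran from 0.10 to 0.34 (log2), with a median of 0.16. Under TMM the log2 fold change was below 0 for 6 of 6 subunits of polymerase I and 10 of 10 subunits of polymerase III, and with spike-in scaling for 4 of 6 and 5 of 10. In DMA cells, compared with the same solvent libraries, POLR3K measured 15.7, 15.8 and 14.5 CPM (-0.45 ± 0.17, edgeR adjusted p = 0.16, with the block 0.082).

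The inhibitors were also set against each other, with the spread estimated from all 12 libraries. Of the 46 genes only UBTF was called, lower in DMA cells (2.17%, against 2.89% of all genes tested, 0.943% higher and 1.95% lower). DESeq2 called 3 of the 46, where it called 6.91% of all genes. UBTF (chromosome 17, 44205033 to 44221626) measured 113, 107 and 114 CPM in DMA libraries, against 169, 146 and 157 CPM in C646 libraries (-0.50 ± 0.11, edgeR adjusted p = 0.031), without overlap. Against solvent cells it measured -0.30 ± 0.11 in DMA cells (edgeR adjusted p = 0.16) and 0.20 ± 0.11 in C646 cells (0.39), neither past the threshold. The call between the inhibitors ended in a fit of these 6 libraries alone (adjusted p = 0.065) and when any of the 6 was left out (adjusted p = 0.054 to 0.12), and with spike-in scaling the value was -0.40 (adjusted p = 1.0). With the replicate number as a block UBTF (0.011), POLR3B (-0.77, 0.012) and GTF3C3 (-0.49, 0.025) were called lower (6.52%, against 9.81% of all genes, 3.96% higher and 5.85% lower). POLR3B measured 16.98, 11.8 and 10.2 CPM in DMA libraries, against 25.9, 21.01 and 19.2 CPM in C646 libraries, and GTF3C3 measured 34.8, 35.6 and 41.02 CPM in DMA libraries, against 48.8, 52.7 and 55.4 CPM in C646 libraries. Neither gene's DMA libraries reached the lowest C646 library.

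POLR3G and POLR3GL occupy the same place in the enzyme, and POLR3G is known as the form prominent in stem and tumour cells. The ratio of POLR3G to POLR3GL, both in TPM, was 0.349, 0.430 and 0.398 in DMA libraries, 0.529, 0.530 and 0.461 in C646 libraries, 0.590, 0.482 and 0.560 in solvent libraries and 0.370, 0.463 and 0.392 in starved libraries. Each solvent library lay above each DMA and each starved library, while the C646 libraries overlapped the solvent ones. The share of POLR3G counts on transcript POLR3G-201 ran from 4.74% to 88.8% between libraries, and TPM, corrected per transcript length, depends on that division. Another gene overlaps 21.2% of the exon bases of POLR3GL. No test was run on the ratio. The group means were 0.392 ± 0.0405 in DMA cells, 0.507 ± 0.0400 in C646 cells, 0.544 ± 0.0556 in solvent cells and 0.409 ± 0.0483 in starved cells (SD, n = 3 each), and POLR3GL was the more abundant form in each library.

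Other genes that work with the polymerases were counted in lists by role, in solvent against starved cells, where 12.6% of all genes tested rose and 11.7% fell. Of 33 general initiation factors of polymerase II, 10 rose and 1 fell, led by TAF13 (1.11, edgeR adjusted p = 0.00011), TAF7 (0.67, 0.0008) and TAF11 (0.67, 0.017), all subunits of TFIID, while TAF8 of the same complex fell (-0.65, 0.022, and -0.05 with spike-in scaling). With 1 library left out, TAF11 and TAF8 lost their calls at adjusted p up to 0.084 and 0.074. Of 23 pausing and elongation factors 4 rose and 2 fell: HEXIM1, which holds the elongation kinase P-TEFb inactive, measured 0.70 and the PAF1 complex subunits CTR9 0.66 and LEO1 0.61, against -0.77 for the elongation factor TCEA1 and -0.49 for AFF4, which measured 0.10 with spike-in scaling. The call of HEXIM1 ended when 1 library was left out (adjusted p up to 0.061). Of 13 assembly and import factors only the ATPase gene RUVBL1 rose (0.61), of 4 polymerase I termination and silencing genes only CAVIN1 (1.14), and of 5 subunits of the snRNA activating complex none was called by edgeR. Of 6 further subunit genes, POLR2M fell (-0.73), and its counts are uncertain because 20.7% of its 31-mers are found elsewhere in the transcriptome. In DMA against solvent cells GTF2A1, a TFIIA gene, fell (-1.01, edgeR adjusted p = 0.02) and the elongation factor ELL rose (0.87, 0.04), and in C646 against solvent cells GTF2H2 was lower (-0.59, 0.045), with 73.1% of its 31-mers found elsewhere. GTF2A1 was also lower in DMA than in C646 cells (-1.21, edgeR adjusted p = 0.0049), and without the block no other gene of these lists was called in those 3 comparisons. The calls of GTF2A1 and ELL against solvent and of GTF2H2 ended when 1 library was left out, with adjusted p up to 0.12, 0.17 and 0.19. The block called 4.76% of all genes higher and 5.46% lower in DMA against solvent cells, 4.12% and 3.73% in C646 against solvent cells, and 3.96% and 5.85% in DMA against C646 cells. With the block, the general factors had 1 higher and 1 lower in DMA against solvent cells, 0 and 3 in C646 against solvent cells, and 2 and 2 in DMA against C646 cells. The elongation factors had 2 higher and 2 lower with the block in DMA against solvent cells and 3 higher and 0 lower in C646 against solvent cells. The snRNA activating complex had 1 lower with the block in DMA against solvent cells, the assembly factors 2 lower in C646 against solvent cells, and the termination and silencing genes 1 higher in each of these comparisons.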

How the data were processed

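Each library's deposited table gives, per transcript, expected counts, TPM and an effective length, per the file headers. The submitters' processing notes name Trimmomatic 0.36, STAR 2.7.0e and genome build GRCh38.p10, and per the labels' protocols RNA was isolated with an RNeasy kit and libraries made with a TruSeq Stranded mRNA kit. Which program quantified the transcripts, with which annotation and strand setting, is not given in the sources used here, so overlapping genes on opposite strands may share counts.

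Deposited expected counts were summed per gene by the GENCODE 29 map and rounded to whole numbers; the design had assumed counts. Identifiers outside Ensembl, 92 in number, were taken as spike-in controls of unstated identity and amount and left out of library sizes, as were 264 transcripts without a match. Genes were kept by edgeR's filterByExpr (minimum count 10, minimum total 15). All 12 libraries entered 1 quasi-likelihood fit (edgeR 4.0.16, R 4.3.3) with TMM scaling, and p-values were Benjamini-Hochberg adjusted over all genes tested. CPM values are TMM-scaled, deposited TPM values were summed per gene for levels between genes, and SEs are the fold change over the root of F. The fit was tested on simulated data. Alternatives were DESeq2 1.42.0, its size factors, spike-in scaling, a length offset, other filters, a fit of the compared groups alone, a replicate block and leaving out each library.

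Same-numbered libraries deviated together in each pair of refed groups, with correlations of 0.276 to 0.483 and every pair over 0.1, so the numbers were taken as pairing those libraries. The labels do not say what a number marks. Values per library are given for members past the threshold in some comparison, and up to 3 genes in each direction are named in the other lists; further members named under the block, and POLR3GL, TAF1C, POLR2E and POLR2H, were chosen after their values were seen. The members and lists were chosen with earlier results of these data known. Motif windows are from RefSeq's table on GRCh38.p14.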

Additional observations from a re-analysis of the deposited data

How the results depend on the processing

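In solvent against starved cells 17 members were called, 20 with spike-in scaling (20 higher), 20 with the number as a replicate block, 14 with a length offset and 12 to 17 without 1 library. Spike-in scaling turned POLR1D to 0.121 and TAF1D to 0.111, and moved the medians of polymerase I, polymerase II, shared subunits and polymerase III to 0.944, 0.826, 1.01 and 0.777; without 1 library these were 0.325 to 0.473, 0.159 to 0.334, 0.241 to 0.584 and 0.169 to 0.236. The block without solvent library 1 gave 0.627 for shared subunits. There, same-numbered libraries correlated at 0.0957, 0.33 and 0.182, each highest with its own number. The block added ZNRD1 (adjusted p = 0.033) and GTF3A (0.038) as higher and MAF1 (0.039) as lower. It also called 3 of the 4 polymerase I termination and silencing genes higher and 1 lower, where the fit without the block called 1 higher. The share of all genes called with the block was not counted for this comparison, so its counts have no background. In DMA against solvent cells 1 member was called, but 5 with DESeq2, 3 with no filter, 7 with the replicate block, 0 with spike-in scaling, 0 in a fit of the compared groups alone and 0 to 2 without 1 library; spike-in medians were 0.0623, 0.0772, 0.334 and 0.201. In C646 against solvent cells 0 were called, 3 with DESeq2, 2 with the block, 0 with the block and without solvent library 1, and 0 to 0 without 1 library; spike-in medians were -0.00381 for polymerase I and 0.0724 for polymerase III, which was -0.15 with the length offset. In DMA against C646 cells 1 was called, 3 with DESeq2, 2 with no filter, 3 with the block, 0 with spike-in scaling, 0 in the compared groups alone and 0 to 1 without 1 library; spike-in medians were -0.00885 and 0.033 for polymerases I and II, and without 1 library -0.131 to -0.00893 for polymerase I and 0.147 to 0.32 for shared subunits. Over all genes, calls higher and lower were 1921 and 1783 under TMM and 3227 and 189 with spike-in scaling in solvent against starved cells, 112 and 155 against 85 and 6 in DMA against solvent, 124 and 61 against 84 and 16 in C646 against solvent, and 144 and 297 against 53 and 67 in DMA against C646. The cause of these shifts was not tested. With 3 libraries per group and SEs of 0.10 to 0.34, small changes were not detectable.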
